A study of Mus musculus with 21 samples.

Results

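Glycolysis and the pentose phosphate pathway were followed through 34 genes in mouse macrophages grown from bone marrow. The genes were chosen by function, as glucose transporters, glycolytic enzymes, lactate-handling proteins and pentose phosphate pathway enzymes. Earlier results of these data were known when they were chosen, and the part of this in the shares called was not tested. These genes are 34 of the 47069 gene rows of the count matrix, and all 34 were among the 14473 genes that passed the filter on low counts. RNA was sequenced from 21 libraries in 7 groups of 3. Wild-type C57BL/6 cells were left without cytokine or given IL-33 or IL-4. ST2-/- cells on C57BL/6, which lack the IL-33 receptor chain by their label, and C57BL/6 cells of the genotype Cx3cr1CRExGata3fl/fl, called floxed cells here, were left without cytokine or given IL-33. In all groups the precursors had grown for 5 days in M-CSF-conditioned medium, and the cytokine stayed on for 36 h. The Cx3cr1 promoter drives Cre in the floxed cells, which therefore carry both Cre and the floxed alleles, and no Cre-only group was used here. Age and the number of mice are not given in the sources used here, so p-values measure the spread between libraries, which may be technical.

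Glycolysis splits glucose into pyruvate. Its early steps, from hexokinase to triose phosphate isomerase, spend ATP, and its later steps, from glyceraldehyde phosphate dehydrogenase to pyruvate kinase, return it. Lactate dehydrogenase turns pyruvate into lactate, which monocarboxylate transporters carry across the membrane. The pentose phosphate pathway branches off at glucose 6-phosphate: its oxidative steps make NADPH, and its non-oxidative steps exchange sugars between ribose 5-phosphate and glycolysis. Macrophages are known for raising glucose use when activated, and several of these genes are textbook targets of hypoxia-inducible factors, whose sites hold the core letters ACGTG or GCGTG.

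Each library held between 32626469 and 48743646 counts, and levels are given in CPM, the count of a gene scaled by the TMM-adjusted total of its library. Differences are log2 changes with their standard error (SE), tested with edgeR's quasi-likelihood test and Benjamini-Hochberg adjustment over all 14473 genes. A gene is said to rise, fall or change where the adjusted p was under 0.05. The 8 macrophage markers checked summed to 14220 to 40490 CPM, while those of erythroid and stromal cells stayed at or under 2.17 CPM in sum and the liver and erythroid pyruvate kinase gene Pklr was at 0. RNA of Il1rl1, the gene of ST2, was 17.5 ± 2.95 CPM (SD, n = 3) in unstimulated ST2-/- libraries against 15.7 ± 1.45 CPM in wild type, and Gata3 had 4 to 37 counts per group, so neither deletion can be read from these totals. Xist stood at 277 to 376 CPM in the 6 floxed libraries and at or under 0.0462 CPM in the other 15, and Ddx3y showed the opposite, so in comparisons of floxed with other cells genotype and sex cannot be told apart. Pgk1 and G6pdx lie on the X chromosome. In bulk RNA, fewer cells of a type and less RNA per cell cannot be told apart.

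Promoter sequences are shown for genes that rose with IL-33 and IL-4, 5 with a motif and Rpe without, and for genes that fell, Eno2 with IL-33 and Pfkm with IL-4. They come from RefSeq windows on GRCm38.p6 that run from 250 bases before to 50 bases after a start, and 33 of the 34 genes matched 48 windows. Slc2a3 was not matched. Only bases outside annotated exons are printed, 5′ to 3′ on the gene's strand. Capitals mark ACGTG or GCGTG on either strand, the other strand's letters being CACGT and CACGC. Slc2a1 lies on the plus strand (chr4:119108495-119108710), Pfkfb3 on the minus strand (chr2:11502102-11502340), Pgk1 on the plus strand (chrX:106186850-106187099), Ldha on the plus strand (chr7:46845554-46845803), Slc16a3 on the plus strand (chr11:120948817-120949052), Rpe on the plus strand (chr1:66700581-66700830), Pfkm on the plus strand (chr15:98092339-98092588) and Eno2 on the minus strand (chr6:124769674-124769862). The stretches of Pfkfb3, Ldha and Slc16a3 lie inside the annotated span of their gene, in introns of longer transcripts. Pfkfb3 and Ldha have another window each, not printed: outside exons, that of Pfkfb3 (chr2:11554078-11554179) holds neither motif, and that of Ldha (chr7:46846832-46847081) holds GCGTG and no ACGTG. Pfkm has 3 further windows.
Slc2a1: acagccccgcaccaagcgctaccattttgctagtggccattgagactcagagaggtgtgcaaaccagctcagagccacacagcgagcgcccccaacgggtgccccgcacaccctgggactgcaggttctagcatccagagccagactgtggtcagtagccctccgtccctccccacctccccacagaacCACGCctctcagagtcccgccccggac
Pfkfb3: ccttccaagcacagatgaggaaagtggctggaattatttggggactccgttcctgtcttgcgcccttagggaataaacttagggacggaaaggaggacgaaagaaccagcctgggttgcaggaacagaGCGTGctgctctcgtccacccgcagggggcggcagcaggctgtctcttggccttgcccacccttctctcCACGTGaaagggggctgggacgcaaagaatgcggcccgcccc
Pgk1: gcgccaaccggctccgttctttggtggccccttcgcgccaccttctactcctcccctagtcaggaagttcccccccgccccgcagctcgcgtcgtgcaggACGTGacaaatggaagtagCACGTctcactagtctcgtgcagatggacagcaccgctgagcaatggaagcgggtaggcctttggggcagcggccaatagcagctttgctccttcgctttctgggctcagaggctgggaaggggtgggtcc
Ldha: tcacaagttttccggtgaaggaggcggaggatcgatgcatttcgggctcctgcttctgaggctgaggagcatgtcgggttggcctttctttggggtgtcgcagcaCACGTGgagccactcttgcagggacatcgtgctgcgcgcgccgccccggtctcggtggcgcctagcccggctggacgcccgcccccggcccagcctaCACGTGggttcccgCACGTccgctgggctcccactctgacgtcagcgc
Slc16a3: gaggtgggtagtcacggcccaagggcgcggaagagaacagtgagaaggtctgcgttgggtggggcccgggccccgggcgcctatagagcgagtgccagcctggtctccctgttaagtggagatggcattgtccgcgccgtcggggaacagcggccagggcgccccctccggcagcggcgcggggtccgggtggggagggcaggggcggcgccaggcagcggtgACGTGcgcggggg
Rpe: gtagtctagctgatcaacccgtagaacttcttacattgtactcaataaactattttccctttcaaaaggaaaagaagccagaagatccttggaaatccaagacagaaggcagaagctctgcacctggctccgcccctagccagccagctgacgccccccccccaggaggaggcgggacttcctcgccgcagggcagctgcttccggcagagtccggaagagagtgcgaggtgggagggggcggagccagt
Pfkm: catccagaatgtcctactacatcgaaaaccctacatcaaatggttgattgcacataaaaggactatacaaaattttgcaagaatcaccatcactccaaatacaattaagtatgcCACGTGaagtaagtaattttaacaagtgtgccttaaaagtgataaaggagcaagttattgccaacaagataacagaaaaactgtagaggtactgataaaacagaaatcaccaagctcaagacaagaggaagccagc
Eno2: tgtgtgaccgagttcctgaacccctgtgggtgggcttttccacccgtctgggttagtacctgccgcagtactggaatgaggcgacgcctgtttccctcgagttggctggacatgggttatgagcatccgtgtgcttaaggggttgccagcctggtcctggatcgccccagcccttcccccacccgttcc

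Of the 48 windows of these genes, 43.8% held ACGTG and 60.4% held GCGTG on either strand, and 81.3% held at least one of them. Among all 32851 windows the shares were 19.6%, 32.4% and 43.8%. CACGTG, the E-box that also contains ACGTG, was in 10.4% of the 48 windows and in 7.15% of all windows. The windows of the 34 genes were also richer in G and C, with a median of 60.5% against 52.7% and a median of 19 CG dinucleotides against 7, and the part of this in the motif shares was not tested. By gene, 29 of the 33 matched genes held ACGTG or GCGTG in a window, or 87.9%, against 46.7% of all genes with windows. The 4 matched genes with neither motif in any window were Gpi1, Tpi1 and Rpe, which rose with both cytokines, and Eno2. Pfkm, which fell with IL-4, holds ACGTG. Whether motifs go with the direction of change was not tested. A match describes letters, not a bound site, and the Eno2 and Rpe stretches show only that these letters are not in them.

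Without cytokine, wild-type macrophages held most RNA for the enzymes of the trunk of glycolysis. Levels were scaled per kilobase of the exons of all annotated transcripts together, so the order of genes depends on that length. Aldoa for aldolase A led with 396 ± 23.8 CPM per kb (SD, n = 3). Pkm for pyruvate kinase M followed with 388 ± 1.54 and Pgk1 for phosphoglycerate kinase with 330.3 ± 34.6. In CPM alone Pkm stood at 1942 and Aldoa at 1154, and Eno1 at 847 and Tpi1 at 567. Aldoa and Pkm overlap within these SDs. Ldha stood at 249.9 ± 17.7, Pgam1 for phosphoglycerate mutase at 243 ± 17.8, Tpi1 for triose phosphate isomerase at 206 ± 19.4 and Eno1 for enolase at 157 ± 12.5 CPM per kb. Ldha and Pgam1 were also within their SDs. On this scale the highest gene of the pentose phosphate pathway was Taldo1 for transaldolase at 115 ± 2.25. The hexokinase with the most RNA was Hk3 at 81.03 ± 5.05, and Pfkfb2, at 1.14 ± 0.130, was the lowest apart from Gapdh.

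In wild-type cells 25 of the 34 genes rose with IL-33 and 1 fell, while 18.5% and 16.9% of all tested genes did (2676 and 2446 genes, or 2251 and 3010 with upper-quartile scaling). With IL-4, 23 rose and 3 fell, while 25.1% and 22.5% of all tested genes did. The median log2 change of the 34 genes was 0.56 for IL-33 and 0.59 for IL-4, and that of all genes was within 0.01 of 0 in each. The 33 genes without Gapdh took 1.02 ± 0.05% of all counts in unstimulated cells, 1.64 ± 0.03% under IL-33 and 1.63 ± 0.11% under IL-4 (SD, n = 3). Both comparisons use the same 3 unstimulated libraries. Set directly against each other, 8 genes were higher with IL-33 (background 19.2%) and 8 were higher with IL-4 (background 20.7%). Those higher with IL-33 were Slc2a3, Gpi1, Pfkl, Pfkm, Pfkfb3, Aldoc, Slc16a3 and Pgd, and those higher with IL-4 were Hk2, Hk3, Pfkp, Pfkfb4, Eno2, Slc16a1, Rpia and Tkt. The call of Gpi1 in this comparison was lost without IL-33 library 3 or IL-4 library 1 or 3 (adjusted p from 0.0631 to 0.0744). That of Slc16a3 was lost without any 1 of these 6 libraries except IL-4 library 2 (adjusted p from 0.0625 to 0.147) and with DESeq2 (adjusted p = 0.0748). Sums of marker genes listed for other cells also differed with the cytokines. A single gene can carry such a sum, and levels of the single markers are not given here. The megakaryocyte markers summed to between 14.5 and 22.4 CPM in unstimulated and between 165 and 218 CPM in IL-33 libraries, the neutrophil markers to between 21.04 and 26.02 and between 47.5 and 49.8 CPM, and the lymphocyte markers to between 149 and 177 and between 127 and 140.1 CPM. With IL-4 the megakaryocyte markers summed to between 13.2 and 15.2 CPM, the neutrophil markers to between 16.2 and 16.8 CPM and the lymphocyte markers to between 316 and 325 CPM. The macrophage list summed to 27770 to 30680 CPM without cytokine, 36610 to 40490 under IL-33 and 14220 to 15790 under IL-4. The part of these markers in the results was not tested.

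**Figure D1:**
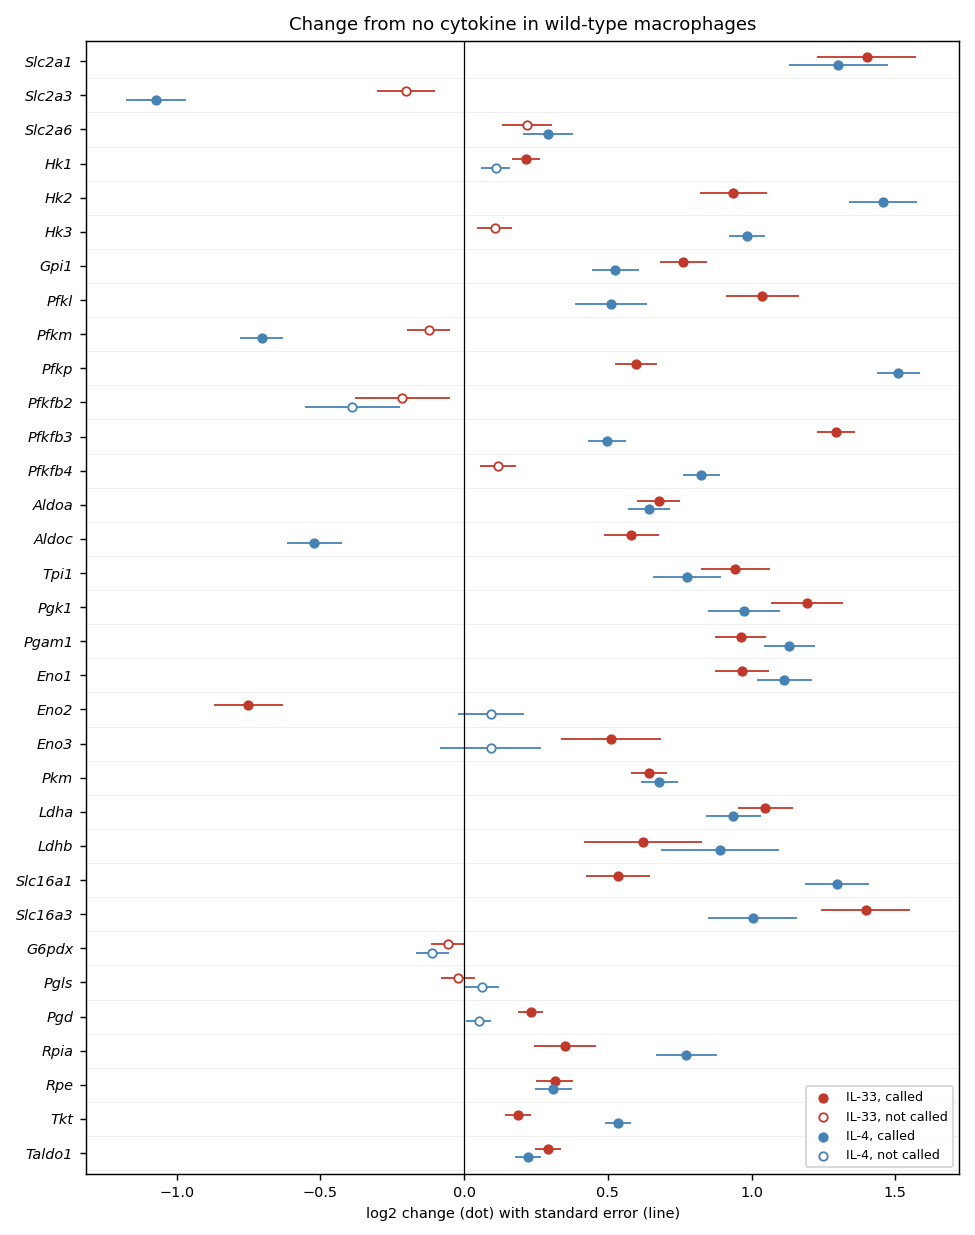
Log2 change against no cytokine in wild-type cells (horizontal axis) for 33 genes without Gapdh, red for IL-33 and blue for IL-4, with bars of 1 SE and filled points for adjusted p under 0.05. Slc2a1, Slc16a3 and Pfkfb3 lie farthest right with IL-33 (1.40, 1.40 and 1.29), Pfkp and Hk2 with IL-4 (1.51 and 1.46), and Eno2 lies on the left with IL-33 only.

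RNA of the glucose transporters changed unequally, and glucose uptake itself was not measured. Slc2a1 (ENSMUSG00000028645, GRCm38 chromosome 4, 119108711 to 119137983), which encodes the ubiquitous transporter GLUT1, stood at 50.2, 70.2 and 51.7 CPM in the 3 unstimulated libraries, at 148, 147 and 159 under IL-33 and at 134, 161 and 129.6 under IL-4. Every treated library lay above every unstimulated one, and the IL-33 and IL-4 libraries overlapped. The log2 change was 1.40 ± 0.17 with IL-33 (2.64-fold, adjusted p = 9.7e-07) and 1.30 ± 0.17 with IL-4 (adjusted p = 1.39e-06), and between the cytokines it was 0.10 ± 0.17 with an interval of -0.25 to 0.45. Slc2a3, for the high-affinity transporter GLUT3, stood at 21.8, 22.7 and 24.7 CPM without cytokine, 19.5, 20.5 and 20.2 under IL-33 and 11.4, 13.1 and 8.52 under IL-4. Its IL-4 libraries were all below the others, a log2 change of -1.07 ± 0.11 (adjusted p = 1.62e-08), and it was higher with IL-33 than with IL-4 by 0.87 ± 0.11 (adjusted p = 5.14e-07). With IL-33 its change of -0.20 ± 0.10 had an adjusted p of 0.129. Slc2a6, for the lysosomal transporter GLUT6, rose by 0.29 ± 0.09 with IL-4 (adjusted p = 0.0592 without IL-4 library 1), and its 0.22 ± 0.09 with IL-33 had an adjusted p of 0.0526. Among the alternatives, DESeq2 (adjusted p = 0.039) and the replicate block (adjusted p = 0.012) called this IL-33 change.

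Of the 10 genes of the early steps, 8 rose with IL-33, and 7 rose and 2 fell with IL-4. The hexokinases, which trap glucose as its 6-phosphate, moved unequally. Hk2, the inducible form, stood at 37.3, 41.5 and 38 CPM without cytokine, 68.6, 75.3 and 79.5 under IL-33 and 94.7, 125 and 101 under IL-4. The 3 groups did not overlap, with log2 changes of 0.94 ± 0.12 (adjusted p = 1.23e-06) and 1.46 ± 0.12 (adjusted p = 6.99e-10), and the direct difference, IL-33 minus IL-4, was -0.52 ± 0.11 (adjusted p = 0.000795). Hk3, the hexokinase of myeloid cells, was at 294, 319 and 283 CPM without cytokine, 315, 316 and 333 under IL-33 and 582, 598 and 589.7 under IL-4. It rose with IL-4 (0.98 ± 0.06, adjusted p = 1.16e-11), while its IL-33 libraries overlapped the unstimulated ones (0.11 ± 0.06, adjusted p = 0.196). Hk1, bound to mitochondria, rose by 0.22 ± 0.05 with IL-33 and had a log2 change of 0.11 ± 0.05 with IL-4 (adjusted p = 0.0712). Gpi1, which isomerises glucose 6-phosphate, rose with both cytokines (0.76 ± 0.08 and 0.53 ± 0.08).

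Phosphofructokinase, the committed step, has a liver, a muscle and a platelet subunit. Pfkl, the liver subunit, stood at 117, 134 and 123 CPM without cytokine, 239, 262 and 268 under IL-33 and 174, 194 and 165 under IL-4. Its 3 groups were separate and IL-33 gave the highest, with changes of 1.04 ± 0.13 (adjusted p = 8.72e-07) and 0.51 ± 0.13 (adjusted p = 0.00187) and a direct difference of 0.53 ± 0.13 (adjusted p = 0.00171). Pfkp, the platelet subunit, showed the other order, at 106, 104 and 99.2 CPM, 165, 146 and 157 under IL-33 and 287, 313 and 279.9 under IL-4. Its changes were 0.60 ± 0.07 and 1.51 ± 0.07 (adjusted p = 8.29e-07 and 1.47e-13), and the direct difference was -0.91 ± 0.07 (adjusted p = 6.14e-10). Pfkm, the muscle subunit, went from 27.1, 27.4 and 27.2 CPM to 16.2, 18 and 15.9 with IL-4, a log2 change of -0.70 ± 0.08 (adjusted p = 5.84e-08). With IL-33 Pfkm was at 24.9, 26.5 and 23.6 CPM (adjusted p = 0.208). The aldolases cleave the doubly phosphorylated fructose. Aldoa rose with both cytokines (0.68 ± 0.07 and 0.64 ± 0.07), whereas Aldoc, the brain form, stood at 80.2, 88.1 and 78.5 CPM without cytokine, 127, 119 and 123 under IL-33 and 51.7, 70.6 and 49.6 under IL-4. Aldoc thus rose with IL-33 by 0.58 ± 0.10 (adjusted p = 4.57e-05) and fell with IL-4 (-0.52 ± 0.10, adjusted p = 0.000118), the only one of the 34 genes with calls in opposite directions. Tpi1 rose by 0.94 ± 0.12 and 0.78 ± 0.12.

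The bifunctional enzymes of the PFKFB family set the level of the activator of phosphofructokinase, fructose 2,6-bisphosphate. Pfkfb3 (ENSMUSG00000026773, GRCm38 chromosome 2, 11471433 to 11554077), the inducible form that mainly makes it, stood at 48.7, 47.5 and 48.5 CPM without cytokine, 101, 126 and 128 under IL-33 and 68.5, 68.7 and 67.1 under IL-4. The unstimulated libraries lay within 2 CPM of each other and below all treated ones, and all IL-33 libraries were above all IL-4 libraries. The changes were 1.29 ± 0.07 with IL-33 (2.45-fold, adjusted p = 9.27e-13) and 0.50 ± 0.07 with IL-4 (1.41-fold, adjusted p = 1.47e-06), with a direct difference of 0.80 ± 0.07 (adjusted p = 1.04e-09). Pfkfb4 stood at 70.4, 80.7 and 74.9 CPM, 76.1, 84.9 and 84.3 under IL-33 and 139, 130.1 and 131 under IL-4. It rose with IL-4 (0.83 ± 0.06, adjusted p = 3.87e-10) and had a change of 0.12 ± 0.06 with IL-33 (adjusted p = 0.166), and the direct difference was -0.71 ± 0.06 (adjusted p = 5.77e-09). Pfkfb2, at 8.29 ± 0.943 CPM (SD, n = 3), had changes of -0.215 ± 0.165 and -0.389 ± 0.166 with adjusted p-values of 0.349 and 0.0595. Its IL-4 libraries were all below the unstimulated ones. The fall with IL-4 was called with DESeq2 (adjusted p = 0.0395), upper-quartile scaling (0.0393) and the replicate block (0.0486), among other alternatives.

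**Figure D2:**
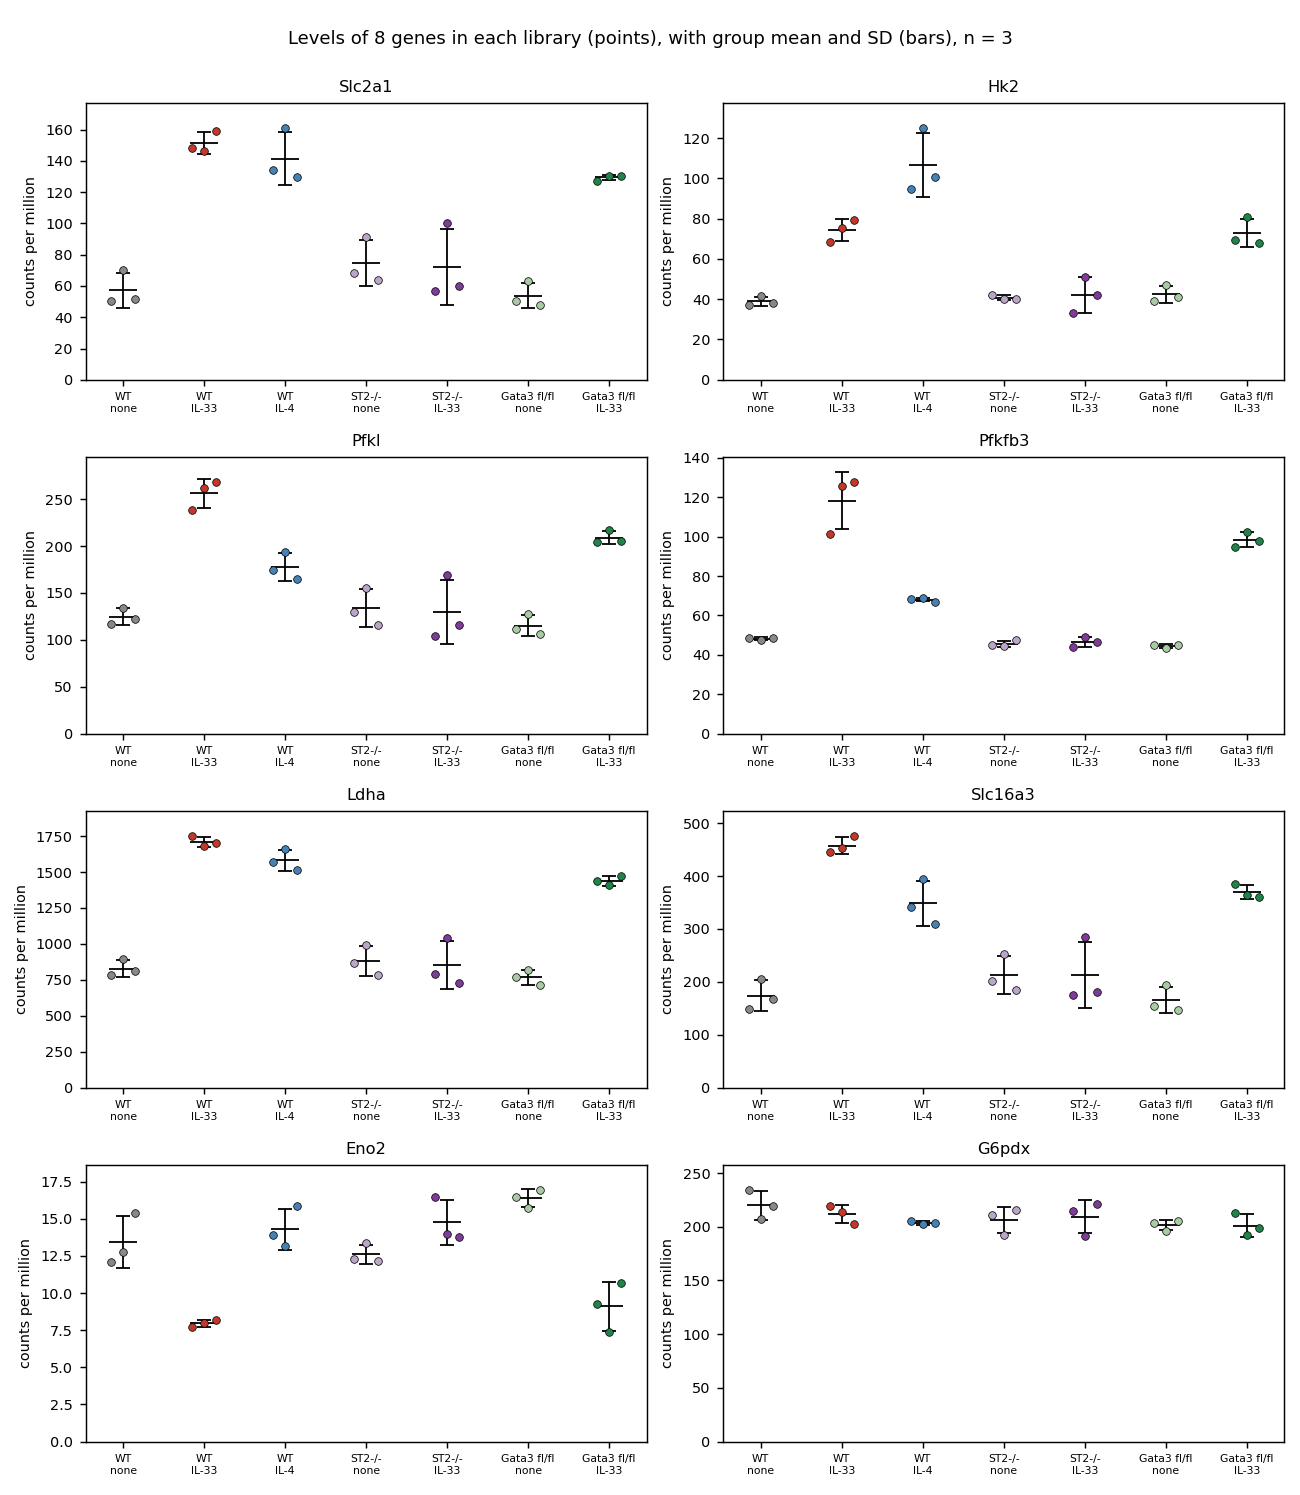
CPM per library (vertical axis) of 8 genes in the 7 groups, with points for libraries and bars for the mean and SD. For Slc2a1, Hk2, Pfkl, Pfkfb3, Ldha and Slc16a3 the wild-type IL-33 and IL-4 libraries and the floxed IL-33 libraries lie above their controls, Eno2 is lower with IL-33 in wild-type and floxed cells, and G6pdx stays between 192 and 234 CPM in all libraries.

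Among the 7 genes of the later steps 6 rose with IL-33 and Eno2 fell, and 4 rose with IL-4. Pgk1 (ENSMUSG00000062070, GRCm38 chromosome X, 106187100 to 106203699), which makes the first ATP of these steps, stood at 664, 819 and 741 CPM without cytokine, 1607, 1676 and 1798 under IL-33 and 1435, 1612 and 1318 under IL-4. The treated libraries were all above the unstimulated ones, with changes of 1.19 ± 0.13 (2.29-fold, adjusted p = 9.42e-08) and 0.97 ± 0.13 (adjusted p = 8.79e-07). Pgam1 rose by 0.96 ± 0.09 and 1.13 ± 0.09, Eno1 by 0.97 ± 0.09 and 1.11 ± 0.10, and Pkm by 0.64 ± 0.06 and 0.68 ± 0.06. Eno2 (ENSMUSG00000004267, GRCm38 chromosome 6, 124760053 to 124769673), the neuronal enolase, stood at 12.1, 12.8 and 15.4 CPM without cytokine, 7.75, 7.96 and 8.22 under IL-33 and 13.9, 13.2 and 15.9 under IL-4. Its IL-33 libraries were the lowest, a log2 change of -0.75 ± 0.12 (adjusted p = 2.6e-05), and its IL-4 libraries overlapped the unstimulated ones (adjusted p = 0.542). Eno3, the muscle enolase, was at 3.16 ± 0.428 CPM without cytokine and 4.51 ± 0.487 with IL-33 (SD, n = 3), and its rise of 0.51 ± 0.17 (adjusted p = 0.0254) was lost without wild-type unstimulated library 1 or 2 or IL-33 library 3 (adjusted p from 0.0515 to 0.117). Of the distinct 100-base stretches of their transcripts, 51.7% of Pgk1, 33.9% of Pgam1, 20.4% of Eno1 and 12.3% of Pkm also occur in other genes. The counts of these genes are therefore uncertain. Over all libraries Pgk1-rs7 had 7953 counts against 892269 for Pgk1, and Pgam1-ps2 had 14846 against 572777 for Pgam1. The pseudogene Gm4735 had 11016 against 990520 for Eno1, and Gm6560 had 16990 against 1955256 for Pkm.

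Gapdh (ENSMUSG00000057666, GRCm38 chromosome 6, 125161715 to 125166467), the glyceraldehyde phosphate dehydrogenase gene often used as a reference, had only 3.06, 3.50 and 3.63 CPM in unstimulated wild-type libraries, 6.19, 52.1 and 7.77 under IL-33 and 4.24, 6.68 and 23.3 under IL-4. In the floxed cells it had 36.95, 4.79 and 4.81 CPM without cytokine and 21.2, 7.69 and 106 with IL-33. Of the 21 libraries, 5 stood at 21.2 to 105.9 CPM and the others at 3.06 to 7.77 CPM, and the 5 were spread over 4 groups. The matrix holds 79 other genes that share 100-base stretches with Gapdh, and together they had 44.8 to 124 CPM. In wild type their sum was 49.6 to 66.4 CPM without cytokine, 115 to 124 under IL-33 and 90.9 to 104 under IL-4. In ST2-/- cells it was 51.97 to 66.8 CPM without and 53.8 to 67.5 CPM with IL-33. In floxed cells it was 44.8 to 59.7 CPM without and 90.2 to 96.9 CPM with IL-33. The differences in this sum were not tested. The call of Gapdh with IL-33 in wild type (2.70 ± 0.96, adjusted p = 0.0317) rests on library 2. Without it the change was 1.03 with an adjusted p of 0.469, and leaving out any unstimulated library also lost the call (adjusted p from 0.0756 to 0.0884).

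**Figure D3:**
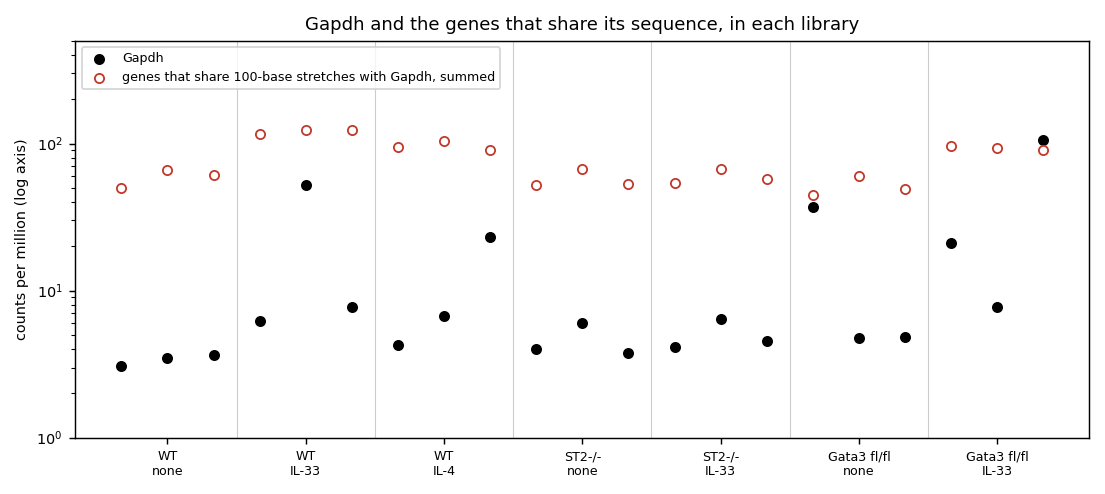
CPM on a log axis of Gapdh and of the sum of the 79 genes that share sequence with it, 1 point per library in 7 groups. The Gapdh points stand at 3.06 to 7.77 CPM in most libraries and at 21.2 to 105.9 CPM in 5. The summed genes range from 44.8 to 124 CPM. Their sum is higher with IL-33 or IL-4 in wild-type cells and with IL-33 in floxed cells, and overlaps in ST2-/- cells.

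All 4 lactate genes rose with both cytokines. Ldha (ENSMUSG00000063229, GRCm38 chromosome 7, 46841475 to 46855627), the lactate dehydrogenase subunit that favours lactate, stood at 781, 893 and 809 CPM without cytokine, 1750, 1684 and 1699 under IL-33 and 1573, 1661 and 1515 under IL-4. Both treated groups were above the unstimulated one, with changes of 1.05 ± 0.10 (2.07-fold, adjusted p = 1.18e-08) and 0.94 ± 0.10 (adjusted p = 3.07e-08). Slc16a3 (ENSMUSG00000025161, GRCm38 chromosome 11, 120948480 to 120960868), for the lactate exporter MCT4, stood at 149, 205 and 167 CPM without cytokine, 445, 453 and 476 under IL-33 and 342, 394 and 309.5 under IL-4. The 3 groups were separate, with changes of 1.40 ± 0.16 (adjusted p = 2.16e-07) and 1.00 ± 0.15 (adjusted p = 1.01e-05). Slc16a1, for the transporter MCT1, went from 8.47, 10.3 and 9.02 CPM to 14.5, 12.9 and 12.8 under IL-33 and 21.8, 23.97 and 22.5 under IL-4. The direct difference, IL-33 minus IL-4, was -0.76 ± 0.11 for Slc16a1 (adjusted p = 4.66e-06) and 0.39 ± 0.15 for Slc16a3 (adjusted p = 0.0438), the call of Slc16a3 being lost with DESeq2 and without any of 5 single libraries, as given above. Ldhb, the heart-type subunit, was low, at 3.90 ± 1.25 CPM without cytokine and 6.03 ± 1.14 with IL-33 (SD, n = 3). Its rise with IL-33 (0.62 ± 0.21, adjusted p = 0.0214) was lost without unstimulated library 1 or IL-33 library 2 or 3 (adjusted p from 0.0509 to 0.142).

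In the pentose phosphate pathway the non-oxidative genes rose and the entry enzyme did not pass the test. G6pdx, for glucose 6-phosphate dehydrogenase, which commits glucose to the oxidative steps, stood at 234, 207 and 219 CPM without cytokine, 219, 214 and 202 under IL-33 and 206, 202 and 203 under IL-4. The changes were -0.06 ± 0.06 with an interval of -0.18 to 0.07 and -0.11 ± 0.06 with an interval of -0.23 to 0.01. With upper-quartile scaling the change with IL-4 was called (adjusted p = 0.0315). Pgls, the lactonase of the next step, had -0.02 ± 0.06 and 0.06 ± 0.06 (adjusted p = 0.828 and 0.437). Pgd, the second NADPH-making enzyme, stood at 455, 434 and 441 CPM without cytokine and 539.8, 497 and 525 with IL-33, a rise of 0.23 ± 0.04 (adjusted p = 0.000237), and at 457, 458 and 463 with IL-4 (adjusted p = 0.379). The non-oxidative Rpia, Rpe, Tkt and Taldo1 all rose with both cytokines. Tkt, for transketolase, stood at 411, 427 and 398 CPM without cytokine, 471, 459.9 and 475 under IL-33 and 610.2, 599 and 581 under IL-4. IL-4 gave the higher level, with changes of 0.19 ± 0.04 and 0.54 ± 0.04 and a direct difference of -0.35 ± 0.04 (adjusted p = 8.22e-07). Rpia, for ribose 5-phosphate isomerase, had 0.35 ± 0.11 and 0.77 ± 0.11, also lower with IL-33 than with IL-4 (-0.42 ± 0.11, adjusted p = 0.00261). The IL-33 call of Rpia was lost without unstimulated library 3 or IL-33 library 2 (adjusted p = 0.0707 and 0.0741). Taldo1 rose by 0.29 ± 0.05 and 0.22 ± 0.05, and Rpe, the epimerase, by 0.32 ± 0.06 and 0.31 ± 0.06. Exons of another gene overlap 20.6% of Pgls, 17.9% of Rpe and 13.6% of G6pdx exon bases, and whether the counting used strand is not given in the sources used here.

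The make-up of some gene families differed between the groups. The share of each member in its family's summed CPM per kb was not tested and is given as a description. Pfkl held 54.1 ± 1.76% of phosphofructokinase RNA without cytokine (SD, n = 3), 66.7 ± 2.01% under IL-33 and 49.7 ± 0.617% under IL-4. Pfkp held 22.3 ± 1.11%, 20.2 ± 1.74% and 40.9 ± 0.543% in the same order, and Pfkm 23.6 ± 0.782%, 13.02 ± 0.899% and 9.35 ± 0.0955%. Pfkl was thus the main form with IL-33. With IL-4 the order of Pfkl and Pfkp depends on the length used. The exons of all annotated transcripts together cover 6675 bases for Pfkl, 13401 for Pfkp and 3340 for Pfkm. In CPM, not scaled by length, Pfkp stood at 293.2 ± 17.35 and Pfkl at 177.7 ± 14.9 with IL-4 (SD, n = 3). In the PFKFB family Pfkfb3 went from 27.8 ± 1.57% to 46.7 ± 1.66% with IL-33 and was 24.2 ± 0.563% with IL-4, where Pfkfb4 held 73.5 ± 0.831%. Slc2a1 made up 21.6 ± 3.54% of the 3 transporters without cytokine, 38.9 ± 1.67% under IL-33 and 36.5 ± 3.75% under IL-4, and Slc2a6 remained the largest share at 58.6 ± 1.74% and 62.1 ± 3.95%. Hk3 stayed the main hexokinase in every wild-type group, between 73.3 ± 0.192% under IL-33 and 81.7 ± 1.15% under IL-4.

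**Figure D4:**
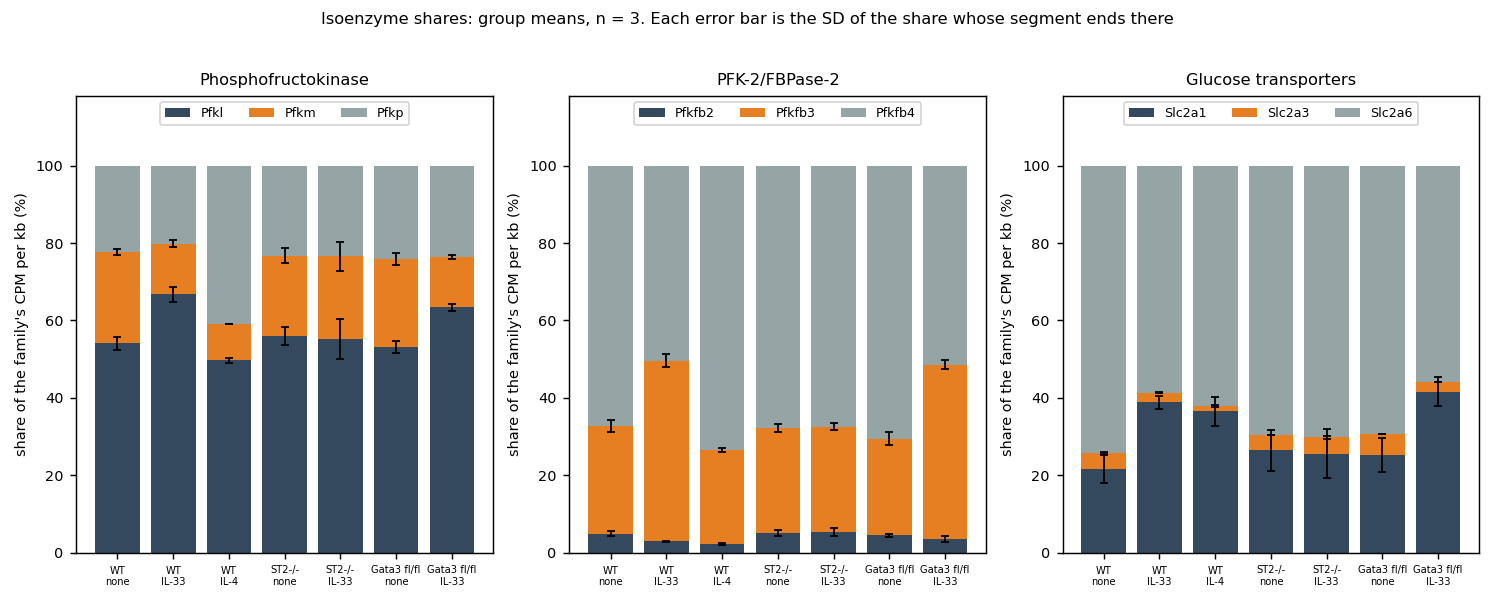
Stacked mean share in percent (vertical axis) of each gene in its family's summed CPM per kb for the phosphofructokinases, the PFKFB enzymes and the glucose transporters in the 7 groups, with SD bars at the segment ends (n = 3). The share of Pfkl is highest with IL-33 (66.7%) and that of Pfkp with IL-4 (40.9%), both in wild-type cells. Pfkfb3 has 27.8% without cytokine and 46.7% with IL-33 in wild-type cells.

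In ST2-/- cells no member of these pathways passed the test for IL-33. The comparison asks whether the response needs the receptor chain. Slc2a1 stood at 68.2, 91.6 and 64.1 CPM without cytokine and 56.8, 100.3 and 59.8 with IL-33, and library 2 was the highest of each group. Pfkfb3 stood at 45.01, 44.5 and 47.5 and 44.2, 48.8 and 46.4 CPM, and Slc16a3 at 202, 253 and 185 and 175, 285 and 180.1 CPM. The groups overlapped for every member except Eno2 and Rpe. Full separation of 3 from 3 libraries has a 2-sided exact permutation p of 0.1, and the share of all genes without overlap was not counted. By edgeR's quasi-likelihood test the count was 0 of 34 genes, with 0 at an unadjusted p under 0.05 and 0 by DESeq2, and 0% of all 14473 genes were called (507 at an unadjusted p under 0.05). The median log2 change of the 34 genes was 0. The IL-33 response of ST2-/- cells differed from that of wild type for 22 genes, 21 of them lower (background 12.1%) and Eno2 higher (background 10.6%). The differences in log2 change were -1.45 ± 0.24 for Slc2a1, -1.40 ± 0.22 for Slc16a3, -1.27 ± 0.09 for Pfkfb3, -1.21 ± 0.18 for Pgk1 and 0.98 ± 0.17 for Eno2 (adjusted p = 0.000106, 4.54e-05, 1.35e-09, 2.05e-05 and 0.000113). Each difference contains the wild-type IL-33 comparison given above, so it is not separate evidence of that response.

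In the floxed cells 23 of the 34 genes rose with IL-33 and 3 fell, while 17.1% and 16.3% of all tested genes did. With upper-quartile scaling, 2001 genes rose and 2985 fell among all genes, against 2471 and 2364 with TMM. Slc2a1 stood at 50.3, 63.02 and 48 CPM without cytokine and 127, 131 and 131 with IL-33, a change of 1.27 ± 0.17 (adjusted p = 4.21e-06). Pfkfb3 went from 45.1, 43.3 and 45.2 to 94.8, 102 and 97.99 CPM (1.14 ± 0.07, adjusted p = 8.57e-12), and Ldha from 768, 817 and 717 to 1437, 1407 and 1475 CPM (0.91 ± 0.10, adjusted p = 1.15e-07). The IL-33 libraries of these 3 genes lay above all unstimulated ones. Those that fell were Slc2a3 (-0.56 ± 0.10, adjusted p = 0.000161), Eno2 (-0.85 ± 0.12, adjusted p = 5.28e-06) and Pfkm (-0.20 ± 0.07, adjusted p = 0.0404). The call of Pfkm was lost without unstimulated library 1, 2 or 3 or IL-33 library 1 or 3 (adjusted p from 0.0518 to 0.183). That of Slc2a6, a rise of 0.25 ± 0.09, was lost without unstimulated library 2 or IL-33 library 1 or 3 (adjusted p from 0.0726 to 0.207). Summed markers of megakaryocytes were at 20.1 to 28.2 CPM without and 134 to 167 CPM with IL-33 in these cells, those of neutrophils at 44.3 to 50.3 and 60.8 to 87.6 CPM, and those of lymphocytes at 281 to 289 and 233 to 267 CPM. Their part in the results was not tested.

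**Figure D5:**
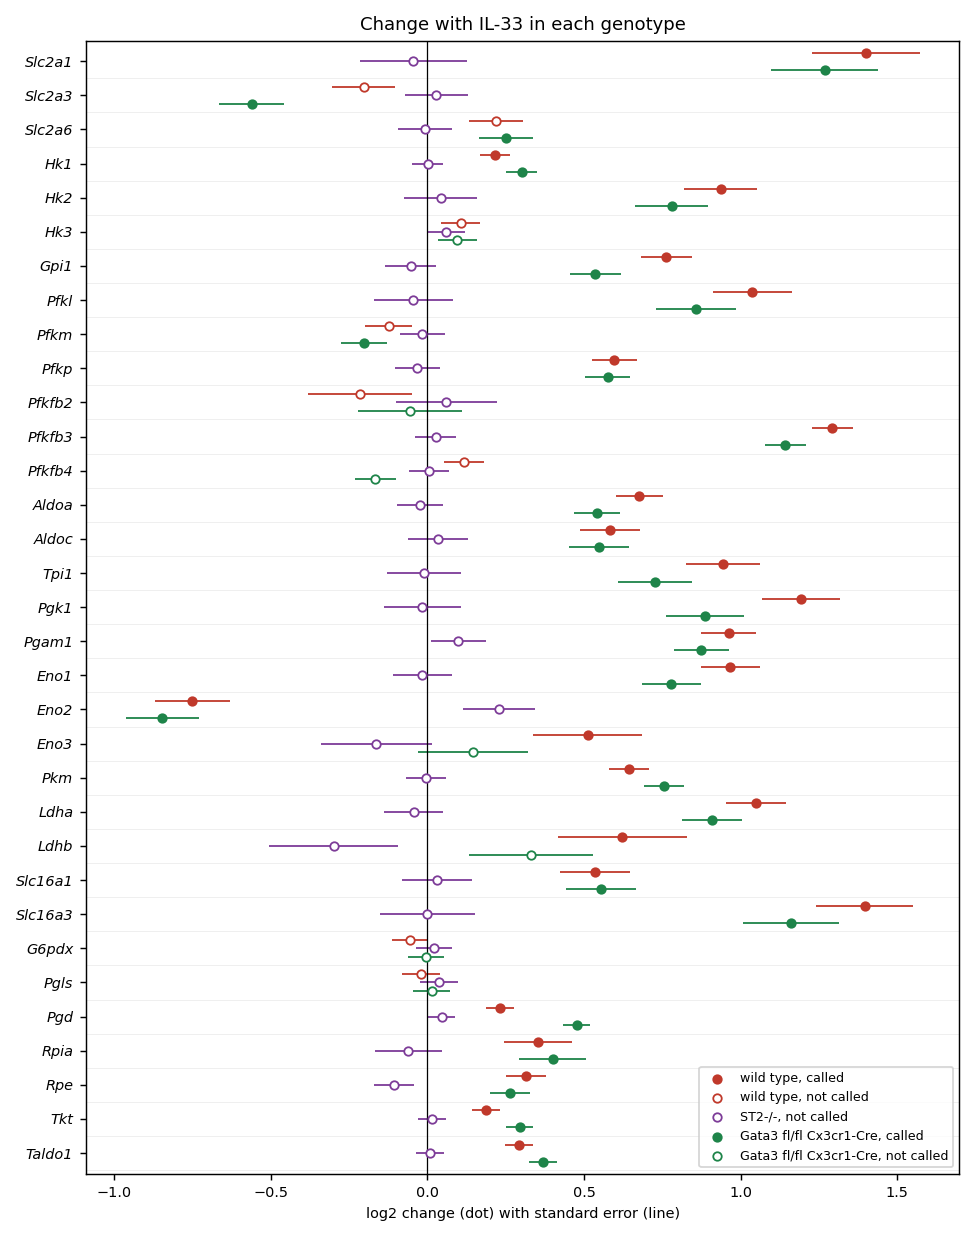
Log2 change with IL-33 (horizontal axis) of 33 genes without Gapdh in wild-type (red), ST2-/- (purple) and floxed (green) cells, with bars of 1 SE and filled points for adjusted p under 0.05. The ST2-/- points lie near 0 and the floxed points near the wild-type ones, as for Slc2a1 (1.40, -0.04 and 1.27) and Pfkfb3 (1.29, 0.03 and 1.14).

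The IL-33 response of the floxed cells was not told apart from that of wild type for any of the 34 genes by edgeR's quasi-likelihood test, while 1.22% of all genes differed. The count was 0, with 3 genes at an unadjusted p under 0.05 (Slc2a3, Pfkfb4 and Pgd) and 1 by DESeq2, Pgd. Among all tested genes 13.6% (1973) had an unadjusted p under 0.05, and DESeq2 called 384. For Pgd the floxed libraries stood at 397, 389 and 403 CPM without cytokine and 571, 513 and 569.9 with IL-33, and the response was larger than in wild type by 0.25 ± 0.06 (adjusted p = 0.0563). For Slc2a1 the difference was -0.13 ± 0.24 with an interval of -0.63 to 0.37, for Pfkfb3 -0.15 ± 0.09 with an interval of -0.34 to 0.04 and for Pgk1 -0.31 ± 0.18 with an interval of -0.67 to 0.06. All 3 intervals include 0. The median difference over the 34 genes was -0.09, and that of all genes was -0.01.

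Without cytokine few of these genes differed between genotypes. Between ST2-/- and wild-type cells edgeR's quasi-likelihood test called 0 of 34 genes, against 1.35% of all genes. It put 4 of the 34 at an unadjusted p under 0.05 (Slc2a1, Hk1, Hk3 and Tkt), against 14.8% of all genes (2137). DESeq2 called 0 of the 34 and 438 of all genes. Between floxed and wild-type cells 1 of 34 rose, against 5.6% of all genes, and 4 fell, against 4.25%. The neutrophil markers summed to 44.3 to 50.3 CPM in floxed against 21.04 to 26.02 in wild-type libraries and the lymphocyte markers to 281 to 289 against 149 to 177 CPM, and their part in these differences was not tested. Slc2a6 stood at 142, 122 and 142 CPM in floxed and 178, 176 and 185 CPM in wild-type libraries, a difference of -0.41 ± 0.09 (adjusted p = 0.00379) with no overlap. Hk1 was lower (-0.22 ± 0.05, adjusted p = 0.00573) and Hk3 higher (0.29 ± 0.06, adjusted p = 0.00479), so the hexokinases moved in opposite directions. Pkm (-0.20 ± 0.06, adjusted p = 0.0489) and Pgd (-0.16 ± 0.04, adjusted p = 0.0221) were also lower, but the call of Pkm was lost on leaving out any 1 of the 6 libraries (adjusted p from 0.0714 to 0.12), and that of Pgd without wild-type library 1 or 3 or floxed library 2 (adjusted p from 0.0609 to 0.104). Gapdh, at 2.21 ± 0.96, was not called (adjusted p = 0.156), and 1 of its floxed libraries stood at 37.0 CPM.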

How the data were processed

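RNA from 21 libraries of bone-marrow-derived macrophages was sequenced in pairs of 150 bases, per the labels' protocols. The authors deposited whole-number counts per gene, made with HISAT2 2.0.5, HTSeq 0.6.1 and DESeq2 1.22.2 on GRCm38, all named in the submitters' processing notes. The annotation release and the strand setting are not given in the sources used here. Libraries held 32626469 to 48743646 counts, and 0 columns of other samples were left out. Here edgeR 4.0.16 (R 4.3.3) with TMM scaling and filterByExpr kept 14473 of 47069 genes. All 21 libraries were fitted in 1 quasi-likelihood model with 7 groups and 14 residual degrees of freedom (biological coefficient of variation 0.086), tested by contrasts with Benjamini-Hochberg adjustment and called at adjusted p under 0.05. Intervals are at 95%. DESeq2 1.42.0, other scalings, no filter, separate fits, a replicate block and leaving out libraries were the alternatives. Deviations of same-numbered libraries of different groups correlated by -0.04 to 0.11 (median 0.026, 2 of 63 over 0.1) and those of differently numbered ones by -0.116 to 0.054 (median -0.013). Not every pair passed 0.1, so numbers were not used as pairs in the model, although a weak sharing by number is seen. The scripts were tested on simulated data. Positions and exon lengths come from GENCODE M21, which matched 46488 of the identifiers.

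The 34 genes and the lists around them were chosen with earlier results of these data known. All 34 were named in every comparison. Of the other lists, at most 4 genes each could be named, those with the largest absolute log2 change among those called in wild type with IL-33 or IL-4. Hif1a was named outside this rule, after its values were seen.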

Additional observations from a re-analysis of the deposited data

Results flagged for a closer look

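The IL-33 response differed between ST2-/- and wild-type cells, by the test of the difference itself (edgeR's quasi-likelihood test, adjusted p under 0.05), for 22 of the 34 genes. The values are the ST2-/- log2 change minus the wild-type one. In glucose uptake and the early steps they were -1.45 for Slc2a1, -0.21 for Hk1, -0.89 for Hk2, -0.82 for Gpi1, -1.08 for Pfkl, -0.63 for Pfkp, -0.70 for Aldoa, -0.55 for Aldoc and -0.95 for Tpi1, and for Pfkfb3 the value was -1.27. In the later steps they were -1.21 for Pgk1, -0.86 for Pgam1, -0.98 for Eno1 and -0.65 for Pkm, while Eno2 alone was positive at 0.98. Among the lactate genes they were -1.09 for Ldha, -0.92 for Ldhb, -0.51 for Slc16a1 and -1.40 for Slc16a3. In the pentose phosphate pathway they were -0.19 for Pgd, -0.42 for Rpe and -0.28 for Taldo1. Leaving out 1 library lost the call of Hk1 for 4 of the 12 libraries compared (wild-type unstimulated 2, wild-type IL-33 3, ST2-/- unstimulated 1 and ST2-/- IL-33 1, adjusted p from 0.067 to 0.112), and that of Ldhb for 3 (wild-type unstimulated 1, wild-type IL-33 3 and ST2-/- unstimulated 2, adjusted p from 0.068 to 0.0965). It lost the call of Slc16a1 without wild-type unstimulated 1 or 3, wild-type IL-33 1, ST2-/- unstimulated 2 or ST2-/- IL-33 1 or 3 (adjusted p from 0.0515 to 0.0815). It lost that of Pgd without wild-type unstimulated 2 or 3, wild-type IL-33 1 or 3, or library 1 or 3 of either ST2-/- group (adjusted p from 0.0572 to 0.093).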

How the results depend on the processing

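No result of the 34 genes reversed under the alternatives run. Leaving out each library in turn gave 23 to 26 called genes for IL-33 in wild type, 25 to 27 for IL-4, 14 to 17 between the cytokines, 0 for IL-33 in ST2-/- cells, 24 to 27 in floxed cells, 19 to 24 for the ST2-/- difference in response, 0 to 1 for the floxed difference, 0 between ST2-/- and wild type and 3 to 4 between floxed and wild type without cytokine. The replicate block gave 27, 27, 18, 0, 27, 25, 1, 0 and 5 in the same order, and 18 of 21 libraries correlated best with others of their own number, a hint from the data and not the design. The floxed difference in response counted 1 with DESeq2's size factors, upper-quartile scaling, the replicate block or DESeq2, or without wild-type IL-33 library 1 or floxed IL-33 library 2, that gene being Pgd, and 2 with no filter, these being Gapdh and Pgk1. Between ST2-/- and wild type without cytokine the count was 5 with no filter and 1, Slc2a1, without the 7 libraries numbered 2, an alternative added after the data were seen. Between floxed and wild type it was 7 with no filter. The cause was not tested. The depth of 32626469 counts or more left the low genes Ldhb and Eno3 with standard errors of 0.21 and 0.17 for IL-33 in wild type.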

Other observations

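Genes around the 34, from lists of further glucose, pentose and glycogen genes and of regulators, moved in both directions. Beside the counts below, 18.5% of all tested genes rose and 16.9% fell with IL-33, and 25.1% rose and 22.5% fell with IL-4, and several of the counts lie near or under these shares. Of 26 tested regulators of glycolytic genes, 12 rose and 5 fell with IL-33 and 11 rose and 4 fell with IL-4, with median log2 changes of 0.06 and 0.10. Egln3, a prolyl hydroxylase that acts on hypoxia-inducible factors and is itself one of their targets, stood at 15.5 ± 4.76 CPM without cytokine, 57.2 ± 6.57 under IL-33 and 24.98 ± 6.86 under IL-4 (SD, n = 3), with log2 changes of 1.88 ± 0.26 and 0.69 ± 0.26 (adjusted p = 5.1e-06 and 0.0357). Myc, a transcription factor that binds E-boxes, stood at 8.20 ± 2.83, 15.04 ± 1.79 and 35.2 ± 2.80 CPM (0.88 ± 0.21 and 2.10 ± 0.20, adjusted p = 0.00172 and 1.3e-08). Bhlhe40, another E-box binding factor, stood at 37.3 ± 2.55, 62.6 ± 6.69 and 309 ± 18.9 CPM, so IL-4 gave the higher level. Mlxipl, the glucose-responsive factor ChREBP, was near 0 in the wild-type groups, at 0.396 ± 0.164 CPM without cytokine. Hif1a, named after its values were seen, rose by 0.55 ± 0.06 with IL-33 and 0.22 ± 0.06 with IL-4 (adjusted p = 2.63e-07 and 0.00603).

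Of 22 tested genes of gluconeogenesis and glycogen, 8 rose and 5 fell with IL-33 and 7 rose and 7 fell with IL-4, where 25.1% and 22.5% of all genes did. Gys1, for glycogen synthase, stood at 23.8 ± 1.66 CPM without cytokine, 65.8 ± 8.34 under IL-33 and 45.9 ± 6.95 under IL-4, while Gyg, for glycogenin, which primes glycogen, stood at 378 ± 7.22, 239 ± 10.5 and 157 ± 8.60 CPM. Gys1 rose (1.47 ± 0.14 and 0.95 ± 0.14) and Gyg fell (-0.66 ± 0.07 and -1.27 ± 0.07) with both cytokines. Pck2, the mitochondrial phosphoenolpyruvate carboxykinase, also fell with both (-1.01 ± 0.07 and -0.98 ± 0.07). Of 11 tested further genes of the pentose phosphate pathway and ribose use, 5 rose with IL-33, and 6 rose and 1 fell with IL-4 (all genes 18.5% up with IL-33, 25.1% up and 22.5% down with IL-4). Pgm2 stood at 41.8 ± 2.81, 92.5 ± 4.62 and 77.5 ± 10.2 CPM, and Prps1, which makes phosphoribosyl pyrophosphate for nucleotides, at 6.37 ± 0.446, 7.35 ± 1.04 and 15.5 ± 1.26 CPM. Prps1 rose with IL-4 (1.28 ± 0.11, adjusted p = 1.3e-09) and had 0.21 ± 0.11 with IL-33 (adjusted p = 0.16). Of 20 tested further genes of glucose breakdown, 7 rose and 3 fell with IL-33 and 3 rose and 6 fell with IL-4, with medians of -0.06 and -0.01 (all genes 18.5% and 16.9%, and 25.1% and 22.5%). The transporter gene Slc2a9 stood at 26.9 ± 0.343, 22.6 ± 1.15 and 15.03 ± 0.654 CPM and fell with both cytokines (-0.25 ± 0.08 and -0.84 ± 0.08). Galm, for the mutarotase of aldoses, stood at 34.7 ± 1.16, 42.5 ± 2.50 and 65.3 ± 2.83 CPM and rose with both (0.29 ± 0.07 and 0.91 ± 0.07). Slc2a8 stood at 30.4 ± 1.62 CPM without cytokine and 18 ± 1.69 with IL-4, where it fell. Slc2a10 had 0 counts in the unstimulated wild-type libraries and 0.462 ± 0.120 CPM with IL-4.

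Libraries numbered 2 stood high in the glycolytic genes in several groups. In library 2 of the unstimulated wild-type group 24 of 33 genes without Gapdh lay above their group mean, with a median deviation of 0.09 on the log2 scale. In library 2 of ST2-/- with IL-33 it was 27 of 33, with a median of 0.13, and in library 2 of wild type with IL-4 it was 26 of 33, with a median of 0.07. Library 2 of wild type with IL-33 had 12 of 33 and a median of -0.02, and library 2 of floxed cells with IL-33 had 13 of 33 and -0.02. In these 2 groups other libraries were highest, library 3 of wild type with 25 of 33 and library 1 of floxed cells with 22 of 33. The share of all genes above their group mean was not counted, so these counts cannot be told apart from a shift of the whole library.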
